A study of Mus musculus with 18 samples.

Results

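The lost regions are 11805 stretches of open chromatin that were called as ATAC-seq peaks in mouse embryonic fibroblasts carrying Brn2 and Myt1l and were no longer called when Ikzf1 and Ikzf4 were added. They were found by merging the peaks of 6 lists wherever peaks overlapped by 1 bp or more, which gave 321676 merged regions. A region is lost when it holds a peak in all 3 lists made with Brn2 and Myt1l and in none of the 3 lists made with Ikzf1 and Ikzf4 as well. Such a region had no called peak, which is less than saying that its chromatin was closed. The members were thus chosen by the presence and absence of called peaks in these same libraries, so their strength and their difference between the groups are given as descriptions with no test.

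The fibroblasts came from the C57BL/6 mouse line R26-M2rtTA, whose rtTA protein switches on doxycycline-dependent vectors. Cells of the first group (BM) carried doxycycline-inducible lentiviruses encoding Brn2, the product of Pou3f2, together with Myt1l, and those of the second (BM/Ikzf1/4) carried vectors for Ikzf1 and Ikzf4 besides, so both groups had Brn2 and Myt1l on. Nuclei were taken after 48 h of doxycycline, 50000 per library, with 3 libraries per group. The labels do not give the share of infected cells, nor do they say whether replicates were separate cultures, so spread between libraries may be technical. In bulk libraries, fewer cells with an open site and less opening per cell cannot be told apart.

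ATAC-seq cuts accessible DNA with a transposase, so peaks mark promoters, enhancers and other sites where nucleosomes are displaced by bound factors. Brn2 is a POU-homeodomain factor and Myt1l a zinc finger factor known for repressing non-neuronal genes, and both are used to turn fibroblasts into neurons. Ikzf1 (Ikaros) and Ikzf4 (Eos) are zinc finger proteins of the Ikaros family. They are known in lymphocytes for recruiting chromatin remodelling complexes to DNA, and in the retina as factors that help set the order in which cell types are born.

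The 3 BM lists held 131297 to 200040 peaks over 73.4 to 124 Mb, and the 3 BM/Ikzf1/4 lists held 197858 to 207243 peaks over 113 to 121 Mb. BM replicate 3 was the shortest list. The numbers of reads behind the lists are unknown, so list length stands in for depth. The authors' deposited RNA table for the same cell groups put the log2 fold change at 7.76 for Ikzf1 (SE 0.17) and 8.54 for Ikzf4 (SE 0.15). Of the factors that both groups carried, Myt1l was at 0.50 (SE 0.17, DESeq2 adjusted p of 0.0157) and Pou3f2 at -0.05 (SE 0.08, DESeq2 adjusted p of 0.689) by the authors' deposited table, so Myt1l RNA was higher with Ikzf1 and Ikzf4. The normalised means in the authors' deposited table, pooled over all its samples, were 269 to 228033 for the 10 fibroblast markers looked for. They were 897 to 73243 for 4 muscle markers, which contractile fibroblasts also express. In the authors' deposited table they were 5.42 to 7600 for 5 neuron markers, 115 to 1168 for 3 immune markers and 1.34 to 50.3 for 4 epithelial ones. The immune markers Ptprc (1168) and Cd68 (1146) lay above the fibroblast markers Pdgfra (696) and Lum (269) and below the other fibroblast markers. Aif1 (115) lay below all fibroblast markers. Whether the cultures held immune cells was not tested.

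Lost regions made up 3.67% of all merged regions, against 9.43% for the 30344 gained regions, which had a peak in all 3 BM/Ikzf1/4 lists and in no BM list. Of the 103021 regions present in all 3 BM lists, 11.5% were lost, 6.01% kept a peak in 1 BM/Ikzf1/4 list, 7.81% in 2 and 74.7% in all 3. Of the 145120 regions present in all 3 BM/Ikzf1/4 lists, 20.9% were gained. The number of lost regions moved most with the peak threshold and with BM replicate 3, and less with list length. How far gained ones outnumbered them moved with all of these. With only peaks at a -log10 q of at least 5, 3383 regions were lost, and with that limit in the region's own group alone 466 were. Gained regions were 2.57 times as many as lost ones in all 6 lists, 1.27 times without BM replicate 3 and 1.12 times when each list was limited to its 131297 highest peaks, where 15690 regions were lost. Without BM replicate 3, 24933 regions were lost, and 11762 of the 11805 members overlapped one of them.

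Of the regions just outside the rule, those kept by 1 BM/Ikzf1/4 list were close to the members in strength, and those missed by 1 BM list were weaker and narrower. In the 6195 regions with a peak in all 3 BM lists and in 1 BM/Ikzf1/4 list, the median of the mean BM -log10 q was 3.13, against 2.94 in the members. The single BM/Ikzf1/4 peak in them had a median -log10 q of 1.89, close to the limit of the lists, which start at a -log10 q of 1.001. That peak came from BM/Ikzf1/4 replicate 3, the longest list, in 3207 of the 6195 cases. On the other side, 17932 regions had a peak in 2 BM lists and in no BM/Ikzf1/4 list, and 13042 of these were missed by BM replicate 3 alone. Their median mean -log10 q was 2.03, their median fold 2.49 against 2.77 in the members, and their median width 409 bp against 580 bp.

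Lost regions were narrower and weaker than regions of all 6 lists, and much like the gained regions in both. Their median width was 580 bp, with quartiles of 427 and 828 bp and a range of 153 to 3536 bp, and together they covered 7.94 Mb. Regions in all 6 lists had a median of 1175 bp, and these can join the peaks of both groups. Gained regions had a median width of 522 bp and a median of the mean BM/Ikzf1/4 -log10 q of 2.93, against 2.94 for the members in the BM lists. In 11565 members (98.0%) each BM list held exactly 1 peak, and in 11302 of those the 3 peaks shared a stretch, with a median length of 231 bp.

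The fold over background, the peak caller's ratio of signal to local background, had medians in the members of 2.82 in BM replicate 1, 2.78 in BM replicate 2 and 2.64 in BM replicate 3. In regions of all 6 lists the same medians were 3.28, 3.19 and 3.09. The -log10 q, which rises with the caller's confidence, had medians of 3.44, 2.69 and 2.45 in the members and of 5.64, 4.23 and 4.21 in regions of all 6 lists. Thus members lay below the shared regions in every BM library, though their quartile ranges overlapped. Set against all peaks of its own list, the member peak was below the list's median -log10 q in 39.1% of members in BM replicate 1, 49.4% in BM replicate 2 and 65.2% in BM replicate 3.

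**Figure D1:**
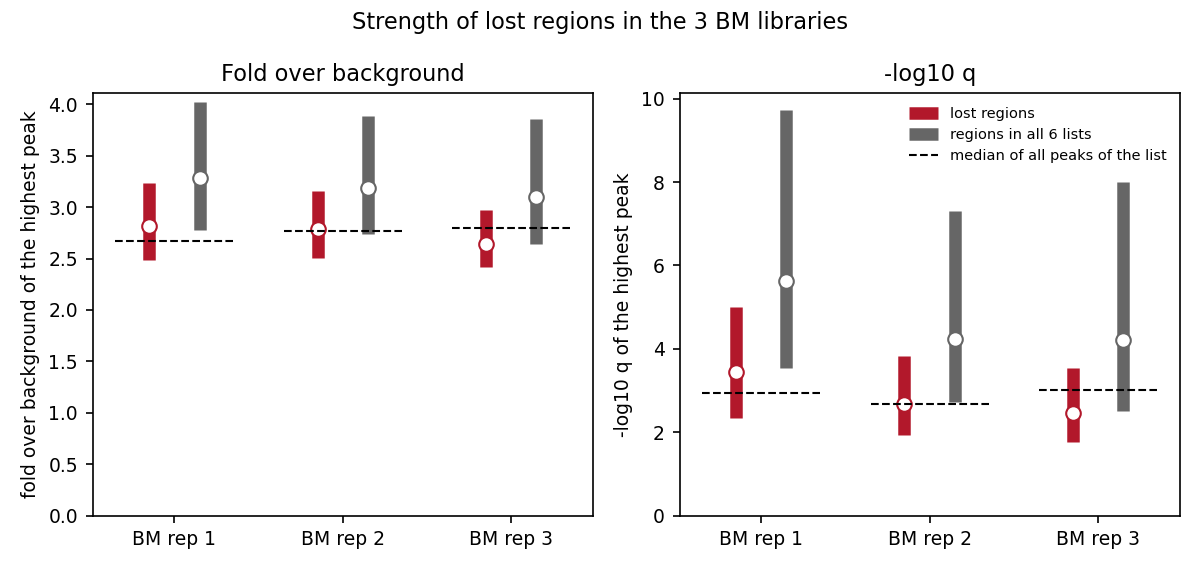
Fold over background (left) and -log10 q (right) of the highest peak in each region, for lost regions (red) and regions in all 6 lists (grey) in the 3 BM libraries; thick bars span the quartiles, circles are medians, and dashed lines are the medians of all peaks of each list. Lost regions sit lower than shared ones in all 3 libraries, with median -log10 q of 3.44, 2.69 and 2.45.

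Few members were strong in every library. A -log10 q of at least 5 in all 3 BM lists was reached by 466 members (3.95%), while 3658 (30.99%) reached it in at least 1. At the other end, the weakest of the 3 BM peaks had a -log10 q under 2 in 6087 members (51.6%). The mean fold over the 3 libraries reached 4 in 253 members (2.14%). Within a member, the ratio of the highest to the lowest fold over the 3 libraries had a median of 1.20 and a 95th percentile of 1.502. The mean folds of the members themselves lay close together, with quartiles of 2.54 and 3.07. Across members, the fold of 2 libraries was related with a Spearman rho of 0.61 for BM replicates 1 and 2, 0.49 for 1 and 3 and 0.45 for 2 and 3. Over regions in all 6 lists, whose folds span a wider range, these values were 0.82, 0.77 and 0.75. Regions within a library share its depth and are not replicates.

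The stronger a BM region was, the less often it was lost. Among regions in all 3 BM lists, 24.95% of the 7534 with a mean -log10 q between 1 and 2 were lost, 18.7% of those between 2 and 3, 12.6% of those between 3 and 5 and 5.87% of those between 5 and 10. From 10 upward, 56 of 14804 were lost, or 0.378%. Without BM replicate 3 the last share was 0.676% and the first 33.3%. The gained regions showed the same gradient in the BM/Ikzf1/4 lists, from 42.9% at a mean -log10 q between 1 and 2 to 1.59% from 10 upward, and lay above the lost share in each of the 5 ranges. BM replicates 2 and 3 were shorter lists than every BM/Ikzf1/4 list, and the part of list length in this was not tested. Of regions in all 3 BM lists under 400 bp wide 45.6% were lost, and of those of 2000 bp or more 0.741%. This width is that of the merged region, which BM/Ikzf1/4 peaks can widen in a kept region and not in a lost one. The split by width is thus not independent of the loss. Such peaks can also join several BM peaks into 1 kept region, whose strength is that of the highest. The split by strength therefore shares this limit in part, and how far was not tested. How much of the loss goes with closeness to the calling limit was not tested.

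**Figure D2:**
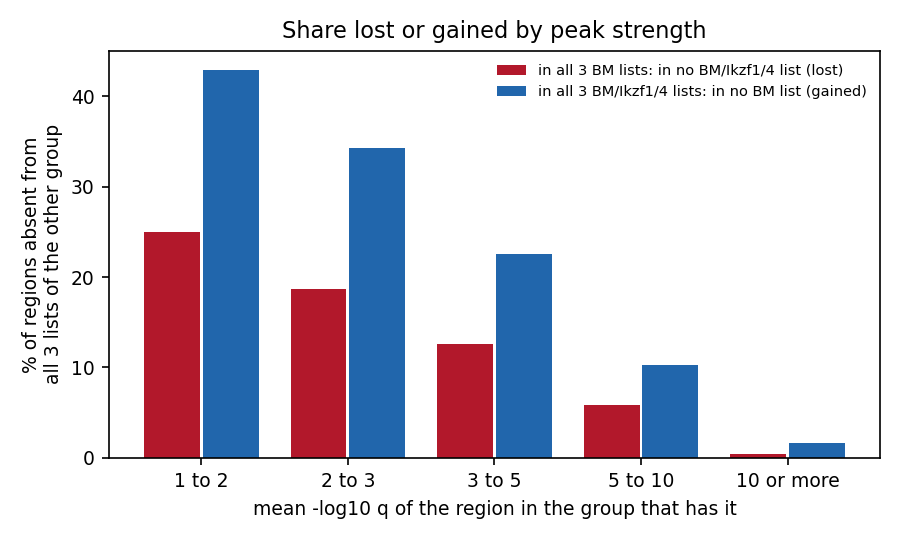
Share of regions present in all 3 lists of a group that had no peak in the other group, by the mean -log10 q in the group that has them; red bars are regions of the BM lists (lost), blue bars those of the BM/Ikzf1/4 lists (gained). Both shares fall with strength, from 24.95% to 0.378% for lost and from 42.9% to 1.59% for gained regions.

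The strongest members are given with their values in the 3 BM libraries; none has a peak in a BM/Ikzf1/4 list. All positions are those of the deposited lists. Their chromosome names, with sequences such as 13_random, and their ends, with a last peak on chromosome 1 at 197160924, are those of the mouse build mm9, and both mm9 and mm10 are named in the submitters' processing notes. Genes and bases at these positions were not analysed here, because no mm9 annotation or genome was used.

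The member with the highest fold lay on chromosome 7 from 28162570 to 28163025. Its fold was 6.66, 7.61 and 5.75 in BM replicates 1, 2 and 3 (mean 6.67 ± 0.93, SD, n = 3), and its -log10 q was 21.8, 23.6 and 16.1. It was high in all 3 libraries and stood far from other members, the nearest being 411 kb away. Within 50 kb on both sides there were 18 other regions, of which 7 were in all 6 lists and none was gained or lost.

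On chromosome 13, from 33036691 to 33037549, the fold was 5.94, 5.98 and 5.35 (mean 5.76 ± 0.35, SD, n = 3). This member was among the most even of the strong ones, and it had company. Another lost region lay 1.11 kb away, and 3 lost regions, 3 gained regions and 3 regions of all 6 lists lay within 50 kb. On chromosome 14, from 72058803 to 72059378, the fold was 6.83, 4.40 and 5.66 (mean 5.63 ± 1.22, SD, n = 3). Here BM replicate 1 was high and BM replicate 2 low, and the neighbourhood held 3 further lost and 6 gained regions, with the nearest lost one 1.53 kb away.

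Chromosome 2 held a pair of the strongest members. From 141740249 to 141740979 the fold was 6.91, 6.07 and 3.62 (mean 5.53 ± 1.71, SD, n = 3), and from 131702224 to 131702926 it was 6.62, 5.02 and 4.604 (mean 5.42 ± 1.06, SD, n = 3). In both, BM replicate 1 was highest and BM replicate 3 lowest. The member on chromosome 1 from 10639938 to 10640638 had folds of 5.96, 6.09 and 4.80 (mean 5.62 ± 0.71, SD, n = 3) and stood 295 kb from the nearest other member.

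The member on chromosome 4 from 102040030 to 102041769, 1740 bp wide, had folds of 5.51, 4.94 and 5.38 (mean 5.28 ± 0.30, SD, n = 3). A BM/Ikzf1/4 peak lay 0.642 kb from its edge. On chromosome 8, the folds were 5.69, 4.97 and 4.95 from 103039634 to 103040346 (mean 5.20 ± 0.42, SD, n = 3) and 5.60, 4.68 and 4.97 from 75385253 to 75385994 (mean 5.08 ± 0.47, SD, n = 3). The former was 79.9 kb from the nearest region of all 6 lists, the longest such gap among the strongest members. Another of the 10 highest by fold lay on chromosome 18 from 57363950 to 57364615, at 4.92, 4.79 and 5.55 (mean 5.08 ± 0.41, SD, n = 3), highest in BM replicate 3.

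Ranked by -log10 q, 7 of the 10 highest members were the same. The other 3 were wider or lay in a busier place. The member on chromosome 9 from 13798939 to 13800854 (1916 bp) had a -log10 q of 15.4, 10.5 and 19.6. It was strongest in BM replicate 3, and no BM/Ikzf1/4 peak lay within 19.8 kb. On chromosome 6 from 134090536 to 134091907 the -log10 q was 13.3, 11.9 and 14.9, with 2 other lost regions within 50 kb.

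The highest -log10 q of all belonged to a member on chromosome 8 from 20011790 to 20012987, at 33.8, 17.1 and 24.0 in BM replicates 1, 2 and 3. Its fold was only 2.44, 2.16 and 2.51 (mean 2.37 ± 0.19, SD, n = 3), below the median of the members. It was the only one of 56 members with a mean -log10 q of at least 10 whose mean fold was under 2.5. Its edge was 0.213 kb from a region open in all 6 lists, and 11 such regions lay within 50 kb.

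A typical member, by contrast, was that on chromosome 13 from 79369169 to 79369645, at the middle of the ranking. Its -log10 q was 3.58, 3.02 and 2.22 and its fold 2.80, 2.84 and 2.59. The member on chromosome 5 from 66284426 to 66284801 had folds of 2.70, 3.16 and 2.71, and that on chromosome 14 from 25051617 to 25052456 had 2.68, 2.55 and 3.18. The 5 longest members were not among the strongest, though several of the strongest were wide. The longest member, on chromosome 5 from 68684760 to 68688295 (3536 bp), had a -log10 q of 3.68, 1.91 and 2.11. Over the 5 longest members the mean -log10 q ran from 1.72 to 4.13. The remaining 4 began at 11230077 on chromosome 3, at 64235541 on chromosome 4, at 16636537 on chromosome 11 and at 68644221 on chromosome 12.

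Lost regions were spread over all 19 autosomes and X. There were 11434 on the autosomes, 315 on X, 2 on Y and 54 on random or unplaced sequences. Per autosome, between 3.12% and 4.25% of merged regions were lost. Chromosome 7 had the lowest share, 479 of 15342, and also the fewest per length, 3.14 per Mb up to its last peak. Chromosome 18 had the highest, 489 of 11496, with 5.39 per Mb, against a median of 4.68 per Mb over the autosomes. Without BM replicate 3, chromosome 7 was again lowest, at 6.02%, while chromosome 16 was highest, at 8.91%, next to 8.86% on chromosome 18.

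On X, 2.93% of merged regions were lost with all 6 lists, below every autosome. That rank did not hold without BM replicate 3, the list with the smallest share of peaks on X. Without BM replicate 3, 8.68% of merged regions on X were lost, within the autosomal range of 6.02% to 8.91% and near its top. The rank of X without any other list was not looked at. Of the regions in all 3 BM lists, 16.5% of the 1904 on X were lost, above every autosome and above the 11.4% of the autosomes together. The gained share of regions in all 3 BM/Ikzf1/4 lists was also higher on X, at 27.6% against 20.7%. Regions of X were weaker, with a median mean -log10 q of 3.18 in those of all 3 BM lists against 4.14 on autosomes. Between a mean -log10 q of 3 and 5, 15.96% of 570 regions on X and 12.6% on autosomes were lost. Between 2 and 3 these shares were 21.8% and 18.6%. X held 3.03%, 2.57% and 1.86% of the peaks of BM replicates 1, 2 and 3 and 2.70% to 2.89% of those of the BM/Ikzf1/4 lists, a wider spread among the BM lists than among the BM/Ikzf1/4 lists. Without BM replicate 3, 26.5% of regions on X and 17.2% on autosomes were lost, of those in both other BM lists. The part that the lower strength and the uneven share of peaks on X play in its higher loss was not tested.

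**Figure D3:**
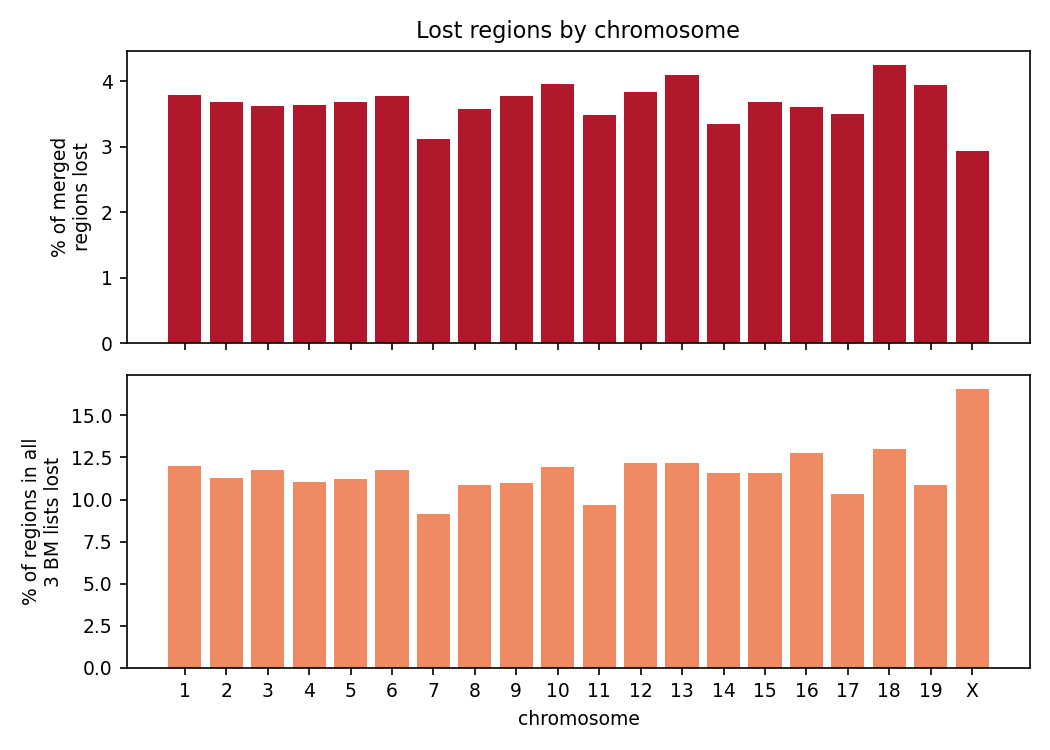
Share of merged regions that were lost on each chromosome (top) and share of the regions present in all 3 BM lists that were lost (bottom). Autosomes range from 3.12% (chromosome 7) to 4.25% (chromosome 18) in the upper panel, where X is lowest at 2.93% (8.68% without BM replicate 3, then near the highest autosome at 8.91%), and X is highest in the lower panel, at 16.5%.

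The RNA of the same cell groups offers a readout that the rule did not use, though here only by chromosome. In the authors' deposited table, 15.4% of 16757 genes with an adjusted p were lower with Ikzf1 and Ikzf4 (DESeq2 adjusted p under 0.05) and 15.3% were higher. By autosome the lower share in the authors' deposited table ran from 13.5% to 18.3%. It was 14.8% on chromosome 7, with the smallest share of lost regions, and 14.4% on chromosome 18, with the largest. Over the 19 autosomes, the share of lost regions and the share of lower genes of the authors' deposited table had a Pearson r of -0.18 and a Spearman rho of -0.13, a description over chromosomes that share the same libraries. On X, 13.8% of genes were lower and 19.7% higher in the authors' deposited table.

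Along the chromosomes, lost regions lay about as near to regions of all 6 lists as those lay to one another. The median gap from a member to the nearest region of all 6 lists was 8.70 kb, and 54.1% had one within 10 kb. Between regions of all 6 lists themselves the median was 8.51 kb and the share 55.3%, and for gained regions they were 11.8 kb and 45.1%. The nearest merged region with any BM/Ikzf1/4 peak was 2.63 kb away in the median. It lay within 1 kb of 2628 members (22.3%) and within 500 bp of 846 (7.17%). Another region with a BM/Ikzf1/4 peak lay within 1 kb of 19.8% of gained regions and 19.3% of regions of all 6 lists, with median gaps of 2.73 and 2.92 kb. Members with such a peak within 500 bp had a median fold of 2.67 and a median width of 634 bp. The 1261 members (10.7%) with no BM/Ikzf1/4 peak within 10 kb had medians of 2.81 and 547 bp. By these medians, members near to the remaining peaks were slightly weaker than those far from them.

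Members lay a median of 59.5 kb from the nearest other member. Regions of all 6 lists were 68.9 kb from the nearest lost region, and gained regions 78.5 kb. Lost regions thus lay closer to one another than shared or gained regions lay to them. Gained regions were more numerous, and the nearest gained region was 27.9 kb from a lost one and 24.1 kb from another gained one. Without BM replicate 3, the median gap between lost regions was 25.8 kb, about that to the nearest gained region, 26.1 kb. From regions of all 5 remaining lists to a lost one it was then 32.4 kb, again longer than between lost regions.

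**Figure D4:**
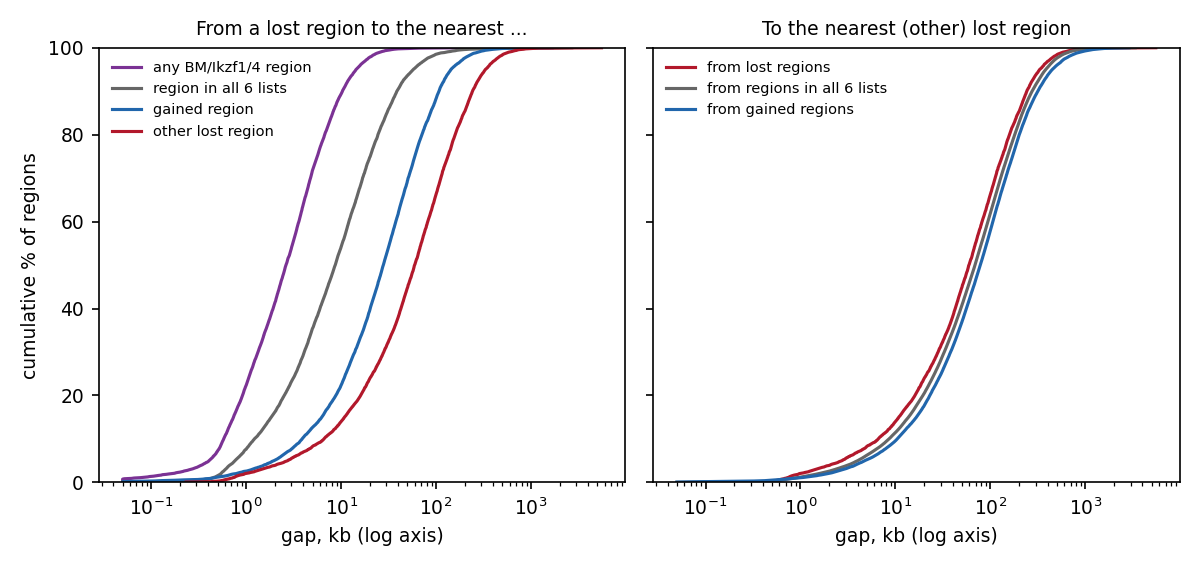
Cumulative share of regions by the gap to the nearest region of another kind, on a log axis in kb, with gaps under 0.05 kb drawn at that value. Left, lost regions lie nearest to any BM/Ikzf1/4 region (median 2.63 kb) and, with all 6 lists, farthest from each other (59.5 kb; 25.8 kb without BM replicate 3, against 26.1 kb to gained regions). BM/Ikzf1/4 regions include the gained regions and those in all 6 lists, so the gap to them cannot be longer. The kinds also differ in number, with 11805 lost, 30344 gained and 76980 regions in all 6 lists. Right, the gap to the nearest lost region is shortest from other lost regions, longer from regions in all 6 lists (68.9 kb) and longest from gained regions (78.5 kb).

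Whether members stood alone or in groups depended on the gap allowed and on the lists used. When members of the 6 lists were chained at gaps of up to 50 kb, 6530 (55.3%) had no partner, 1605 pairs formed, and 589 groups held 3 members or more. In all, 5275 members (44.7%) were within 50 kb of another, a share that was 69.7% without BM replicate 3. For comparison, 40.7% of regions in all 6 lists and 36.7% of gained regions lay within 50 kb of a lost region. A larger number of lost regions also brings them closer together, and without BM replicate 3 there were 24933. The gained regions, which were more numerous, formed groups of up to 23, against 9 for the lost regions. Members in groups of 5 or more had a median fold of 2.74, like the 2.77 of members alone.

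The largest groups each held 8 or 9 lost regions. Group 1 ran from 101114977 to 101276018 on chromosome 3 and had 9 lost regions among 33 in 161 kb (27.3%), with 2 gained and 5 in all 6 lists. Group 2, from 67590411 to 67762112 on chromosome 17, had 9 of 31 (29.0%) in 172 kb, with 3 gained and 3 in all 6 lists. Of the 5 largest groups, these had the highest share of lost regions among all merged regions. That share also counts regions with no BM peak, and each group starts and ends on a lost region. Group 3, from 56247255 to 56426247 on chromosome 15, had 9 of 43 in 179 kb, with 3 gained regions.

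Both remaining groups were on chromosome 5. Group 4 ran from 82034325 to 82274089 and had 9 lost regions of 56 in 240 kb, beside 6 gained and 12 in all 6 lists. Group 5 ran from 13354823 to 13547804 and had 8 of 63 in 193 kb, beside 3 gained and 16 in all 6 lists. In no group were all sites lost, and each held gained sites as well. The mean fold averaged 2.68 to 2.96 per group, against the members' median of 2.77. Single members ran from 2.09 to 4.12, the highest in group 5, and none was among the strongest members named above.

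**Figure D5:**
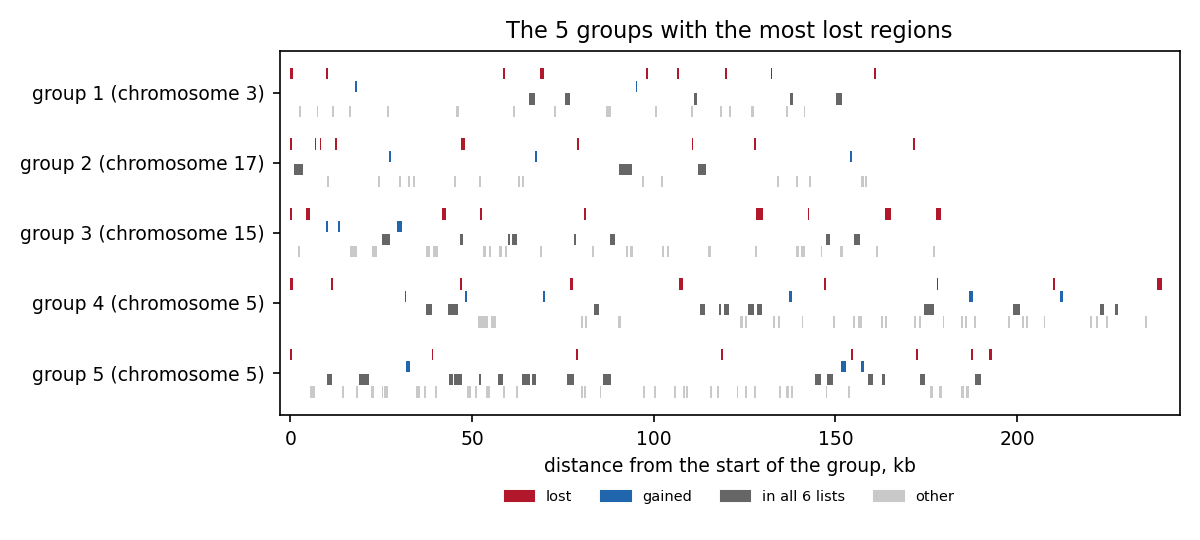
The 5 groups with the most lost regions at gaps of up to 50 kb, drawn to scale from the start of each group in kb, with lost regions (red), gained regions (blue), regions in all 6 lists (dark grey) and other regions (light grey) on separate lines. Lost regions lie among gained, shared and other regions, mostly with 1 or more of these between neighbouring lost ones. Groups 1 to 4 hold 9 lost regions each and group 5 holds 8.

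At a coarser scale, 2485 bins of 1 Mb held at least 50 merged regions each. The median bin had 4 lost regions with quartiles of 3 and 6, and 99 bins (3.98%) had none. The fullest, on chromosome 19 from 49000001 to 50000000, had 17 of 188. It was followed by 16 of 185 on chromosome 11 from 92000001 to 93000000 and by 15 of 128 on chromosome 3 from 101000001 to 102000000, the bin that contains group 1. In 147 bins (5.92%) lost regions outnumbered gained ones.

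Lost and gained regions were set against how densely their surroundings were open in both groups. The bins were split into 5 equal parts by their number of regions in all 6 lists, a split chosen after the data were seen. From the sparsest to the densest part, the share of merged regions that were lost was 3.13%, 3.90%, 3.87%, 3.98% and 3.45%. The share gained fell at each step, from 11.1% over 10.5%, 9.90% and 8.84% to 7.36%. Per bin, the number of gained regions was 11.6, 13.0, 12.9, 12.0 and 10.6 from the sparsest to the densest part. It rose at the first step and fell at the later ones. The number of lost regions per bin was 3.28, 4.81, 5.02, 5.42 and 4.99. There were thus 3.55 gained regions per lost one in the sparsest bins and 2.13 in the densest. Without BM replicate 3 the lost share was between 7.78% and 8.10% in all 5 parts, while the gained share fell from 11.8% to 8.52%. Regions of all 6 lists are part of these denominators and define the split. Counted against lost regions and regions of all 6 lists alone, the lost ones fell from 18.6% in the sparsest bins to 9.59% in the densest. Most of that denominator is the number by which the bins were ranked. This fall is therefore largely built into the split, and it does not show that loss was rarer in dense surroundings.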

How the data were processed

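The 6 MACS2 peak lists of fibroblast ATAC-seq were used, with 3 libraries per group. The authors called the peaks per library, per the labels, and Bowtie2, MACS2, mm9 and mm10 are named in the submitters' processing notes. The sources used here do not give the caller's settings or any blacklist. The lists have 9 columns and no summits. The authors deposited a fold over background (a ratio, column 7) and -log10 p and q (column 9 for q). The authors' deposited RNA table gives, per gene, a mean normalised signal, a log2 fold change, its SE and DESeq2 p-values, and 96.9% of its genes with an adjusted p and a unique symbol were assigned to a chromosome through the RefSeq gene table (GRCm38.p6), whose positions were not used.

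Peaks were merged with Python 3.11.15 and pandas 2.3.3. Each region took the highest fold and -log10 q per list. The merging and gap code was tested on simulated lists. Regions named were the 10 highest by mean fold, the 10 highest by mean -log10 q, the 5 longest, 3 at the median of -log10 q and the 5 largest groups. Members and alternatives were chosen with earlier results of these data known. Planned steps on genes, promoters and motifs need mm9 and were not run.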

Additional observations from a re-analysis of the deposited data

How the results depend on the processing

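The number of lost regions rested most on the peak threshold and on BM replicate 3, the shortest list. How many gained regions there were per lost one also moved with list length. With only peaks at -log10 q of at least 5, 3383 regions were lost and 3.27 gained per lost region, the median fold was 3.93 and 17.2% of lost regions had another within 50 kb. With that limit in the region's own group only, these values were 466, 3.84, 3.95 and 5.36%. With the 131297 highest peaks of each list there were 1.12 gained per lost region, a median fold of 2.93 and 55.1% within 50 kb. Without regions that had a peak of the other group within 1 kb, the ratio was 2.73 and the share 37.8%. With peak centres widened by 100 bp, chosen after seeing the data because the lists hold no summits for the planned version, they were 2.38 and 52.0%. With an overlap of 50% of the shorter peak the share was 45.9%. Gaps of 10 and 100 kb gave 14.0% and 66.2%. Leaving out each library in turn gave 13197 to 24933 lost regions, 1.27 to 3.07 gained per lost region, median folds of 2.62 to 2.78 and 47.6% to 69.7% within 50 kb. At the gap of 50 kb, the share with another lost region nearby was generally higher where more regions were lost. Gained regions outnumbered lost ones under each of these settings. No paired analysis was possible because the lost regions come from a rule on peak presence and not from a test. The alternatives on genes, edgeR, DESeq2, promoters and motifs were not run, since no gene was assigned to a region.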
